A study of Mus musculus with 4 samples.

Results

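The Sox and forkhead (Fox) genes encode 2 large families of transcription factors, and their transcripts were followed here in islet-like clusters and in native islets of the mouse. The members were defined by a rule on gene names, set with earlier results of these data known. They are the non-control probes whose gene name in the array files is Sox with a number, or Fox with a class letter from a to s and a number, with Foxa1, Foxa2 and Foxa3 left out. The rule found 60 genes (19 Sox and 41 forkhead) among 34821 gene names, measured by 86 of 55681 probes and 95 of 59305 spots.

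RNA was hybridised to 4 single-colour Agilent arrays, 2 for islet-like clusters and 2 for islets, from male Swiss albino mice aged 10 to 12 weeks. The cluster arrays hold RNA of stromal-like, fibroblastoid cells that attached and grew out of collagenase-digested pancreas, were passaged, and then spent 10 days on low-adherence dishes in serum-free medium with albumin, insulin, transferrin and selenium. Taurine (0.3 mM) was added on day 3, and nicotinamide (100 mM), taurine (3 mM) and the incretin peptide GLP-1 on day 7. The islet arrays hold RNA of islets flushed off the same kind of digest. Their titles give 48 h of culture while their descriptions speak of fresh isolation, and the labels do not settle which holds. Each digest pooled 2 to 4 mice. Whether the arrays of one group come from different digests is not stated. A p-value here thus reflects array-to-array spread, and whether it covers spread between digests is not known. The stromal cells before induction were not analysed here, so the clusters are set against islets and not against their starting cells.

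Sox proteins bind the minor groove of DNA through an HMG box and bend it, and they are grouped by sequence into lettered groups. Forkhead proteins bind through a winged-helix domain, and their classes are lettered too. In the pancreas Sox9 marks ducts and multipotent progenitors, and Foxo1 is a target of insulin signalling in beta cells. Forkhead factors of classes C, F and L1 are best known from mesoderm and from the mesenchyme around the gut and its derivatives, and SoxF factors from endothelium.

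The level of a probe is log2 of its processed signal minus the 75th percentile of that array, so a level of 0 lies at that percentile. A fold change is the mean level in clusters minus that in islets, on the log2 scale, with the SE of a limma fit and p-values adjusted over all 24595 genes tested (2 arrays per group throughout). A gene was called when its adjusted p was below 0.05. The software's flag for a spot well above background was met by 59.7% and 62.3% of spots in clusters and by 63.6% and 61.2% in islets. Over all genes tested the 2 cluster arrays correlated at r = 0.985 and the 2 islet arrays at 0.989, and arrays of different groups at 0.796 to 0.810. Over the 49 tested members these values were 0.991, 0.990 and 0.559 to 0.615. They run across genes, which are not independent replicates. All 4 arrays share 1 slide and 1 scan day. Batches of digest, culture, RNA extraction or labelling are not given in the labels and were not tested.

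The labelled tissues were set against marker lists. Over all genes tested, 27.2% were called higher and 30.8% lower in clusters, and every list count below stands against these shares. All 13 mesenchymal stromal markers were higher in clusters, with summed levels of 11.2 and 11.1 in clusters and 5.79 and 5.98 in islets. All 9 epithelial markers were lower, at -1.10 and -1.23 in clusters and 10.98 and 11.1 in islets. Of 13 tested endocrine genes 10 were lower, at 2.57 and 2.39 in clusters and 7.62 and 5.18 in islets. Ins1, Ins2 and Gcg met the software's flag on each islet array. In clusters, Ins1 (levels of -3.35 and -3.46) and Ins2 (-0.82 and -1.58) also met that flag on each array, while Gcg met it on neither. All 11 acinar markers were lower, at 0.713 and 0.643 in clusters and 11.9 and 12.6 in islets, and so were 7 of 9 duct markers. The islet RNA thus carried acinar and duct transcripts as well as hormones, and on both islet arrays the acinar sum lay above the endocrine sum. Between the 2 islet arrays, the endocrine sum was lower on replicate 2 and the acinar sum higher, a difference whose origin was not tested. In bulk RNA such as this, fewer cells of a type and less RNA per cell cannot be told apart.

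Of the 60 members, 49 reached the detection flag on both arrays of a group and were tested, and 11 did not. Of those 49, 35 were called (71.4%), where 58% of all genes tested were called. In clusters 16 were higher (32.7%, background 27.2%) and 19 were lower (38.8%, background 30.8%). A log2 fold change of at least 2 in size was found for 19 called members (38.8%, background 19.1%), of which 9 were higher (background 9.61%) and 10 lower (background 9.47%). The median log2 fold change of the members was -0.35 and that of all genes tested -0.15. Among 15 tested Sox genes 2 were higher, 7 lower and 6 not called, and among 34 tested forkhead genes 14 were higher, 12 lower and 8 not called. Of the 2 higher Sox genes 1, Sox5, rests on a single probe of GGA repeats and was not tested without such probes. Foxl2, among the 12 lower forkhead genes, is represented by a GCC-rich probe. Of the called members, 10 were seen in 1 group only (7.92% of all genes tested were called in this way). For 4 of them neither islet array was well above background (background 3.2%), and for 6 neither cluster array was (background 4.72%). For these 10 the fold is a lower bound, written "at least", taken against the higher of each dim array's lowest well-detected spot and the probe's own level, on the scale of the processed signal. The adjusted p beside such a fold belongs to the fit on levels without the bound, and not to the bounded fold. The normexp background correction with its offset of 50, an alternative, compresses dim signals and can give a smaller change than the bound. With either cluster array left out, which leaves 1 array in that group, fewer members were called in each direction. Fewer genes were then called in each direction over all genes tested as well.

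**Figure D1:**
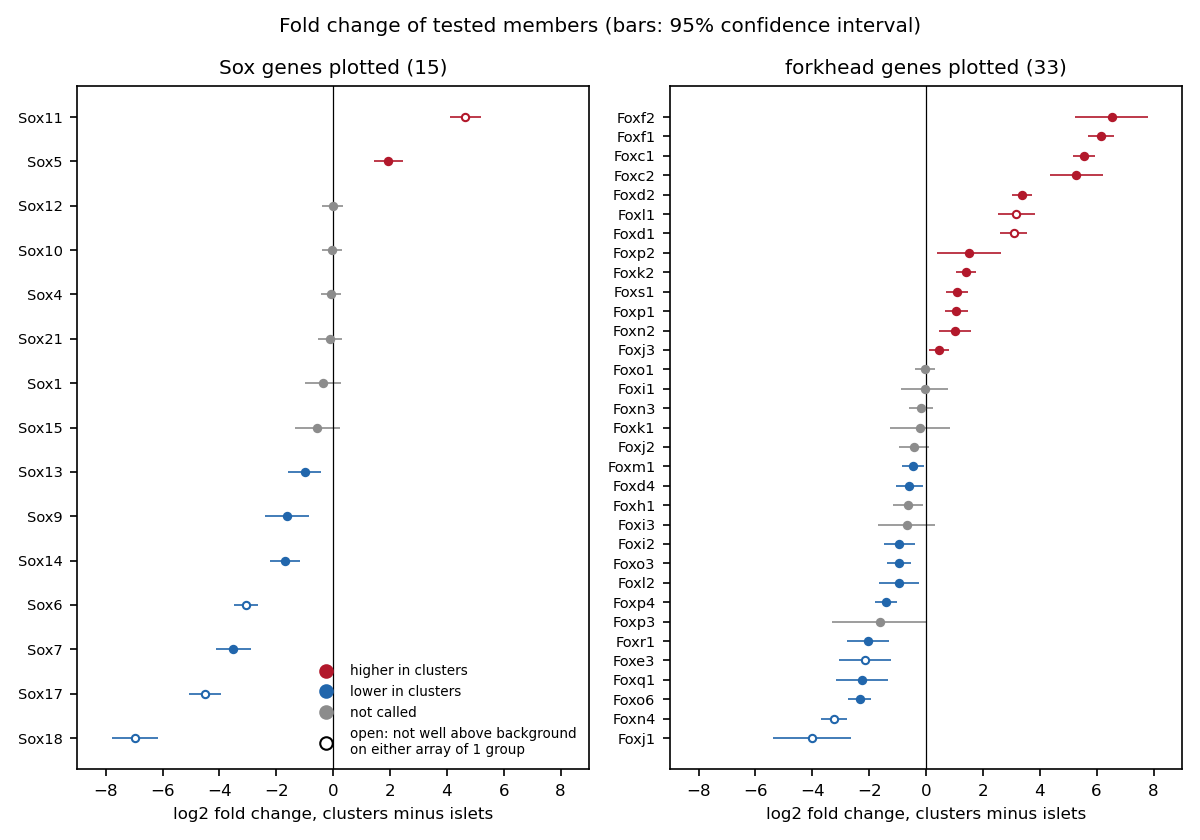
Log2 fold change (islet-like clusters minus islets) of 48 tested members, Sox on the left and forkhead on the right. Points are fitted values and bars 95% confidence intervals, open points have no probe well above background on either array of 1 group, and colour gives the call. Of those drawn, Foxf2 has the highest value (6.53) and Sox18 the lowest (-6.96).

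Forkhead genes of embryonic mesenchyme were among the members with the largest rises in clusters. Foxf1 and Foxf2, which act downstream of Hedgehog signals in gut and lung mesenchyme, were both higher. Foxf1 had levels of 5.23 and 5.16 in clusters and -1.13 and -0.79 in islets, a log2 fold change of 6.16 ± 0.17 (SE, adjusted p = 0.000114). Among the 20778 genes well above background on all 4 arrays its fold change ranked 111 from the top. A second Foxf1 probe, nearer the 5′ end of the transcript, had levels of -2.48 and -2.57 in clusters and -5.21 and -5.89 in islets and neither islet array reached the detection flag with it. With it the gene was at least 4.40-fold higher (adjusted p = 0.00181 over probes). Both probes gave clusters above islets with no overlap.

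Foxf2 had levels of 2.78 and 2.73 in clusters and -3.11 and -4.45 in islets, where 1 of the 2 arrays was well above background. Its fold change was 6.53 ± 0.48 (adjusted p = 0.000897), and the islet arrays lay further apart than the cluster arrays. Without islet replicate 1 it was 7.20 and without islet replicate 2 it was 5.86.

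Foxc1 and Foxc2, paralogs needed for somites, heart and vessels, were both higher. Foxc1 had levels of 2.20 and 2.13 in clusters and -3.28 and -3.48 in islets, a fold change of 5.55 ± 0.15 (adjusted p = 0.000104). Foxc2 had levels of 2.67 and 2.67 in clusters and -2.15 and -3.08 in islets, a fold change of 5.28 ± 0.34 (adjusted p = 0.000661). Cluster and islet arrays did not overlap for either gene, and both were well above background on all 4 arrays. Foxl1, a factor of the mesenchyme beneath the gut epithelium, had levels of -1.45 and -1.89 in clusters and -5.04 and -4.65 in islets. Neither islet array reached the detection flag, and the gene was at least 7.96-fold higher in clusters (adjusted p = 0.000953). With normexp background correction the fold changes were 5.69 for Foxf1, 3.96 for Foxc1, 4.09 for Foxc2, 4.57 for Foxf2 and 0.94 for Foxl1, and all 5 were still called.

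These forkhead genes lie beside each other in the genome. Within 500 kb, 8 members form 3 neighbouring groups (mm9 coordinates of the probes). On chromosome 8, Foxf1 (chr8:123611944-123612003), Foxc2 (chr8:123642693-123642752, 30.7 kb on) and Foxl1 (chr8:123654402-123654461, a further 11.7 kb) were all higher. On chromosome 13, Foxq1 (chr13:31652206-31652265) was lower, while Foxf2 (chr13:31723139-31723198, 70.9 kb on) and Foxc1 (chr13:31902423-31902482, a further 179.3 kb) were higher. Foxq1, which is known from epithelia and hair, had levels of -2.33 and -1.83 in clusters and 0.54 and -0.23 in islets, a fold change of -2.24 ± 0.34 (adjusted p = 0.00675), and of -1.56 with normexp. On chromosome 4, Foxd2 (chr4:114578944-114579003) was higher and Foxe3 (chr4:114597752-114597811), 18.8 kb away, was lower. Neighbours thus moved together in 1 group and in both directions in the other two.

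**Figure D2:**
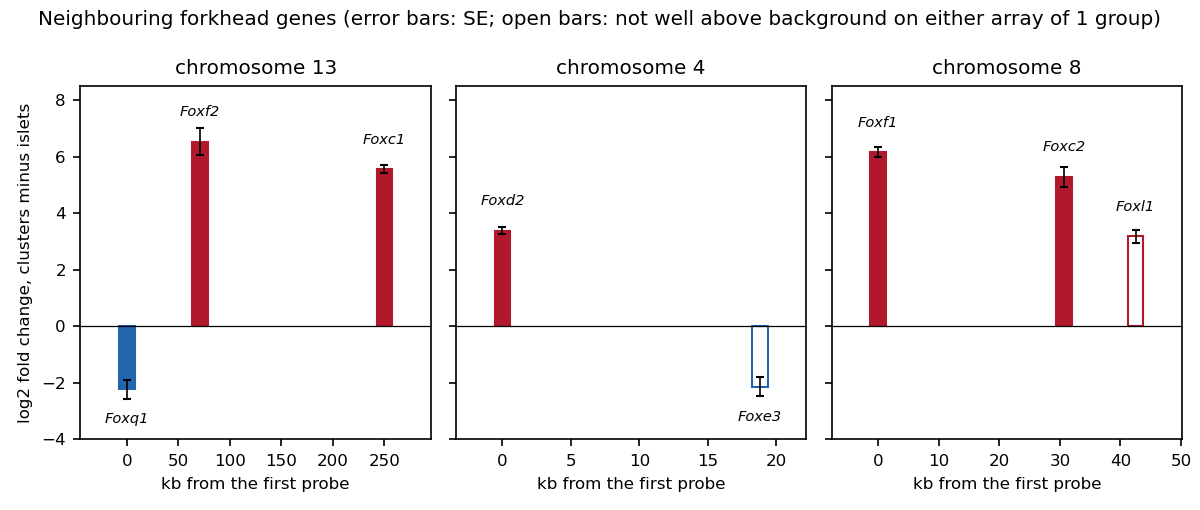
Log2 fold change (islet-like clusters minus islets) of the 3 groups of neighbouring forkhead genes against distance in kb from the first probe of the group, with the SE of the fit. Open bars (Foxl1 and Foxe3) are genes with neither array of 1 group well above background. The 3 genes on chromosome 8 lie above 0, while Foxq1 on chromosome 13 and Foxe3 on chromosome 4 lie below 0 beside neighbours that lie above it.

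The promoters of 4 of these neighbours are in the RefSeq table (GRCm38.p6) and are shown because the pair on chromosome 4 differs in direction while the pair on chromosome 13 shares it. Each run is the 250 bases before the annotated start, 5′ to 3′ on the gene's own strand. Capitals mark GC boxes (GGGCGG or its complement CCGCCC) and the CCAAT box (CCAAT or its complement ATTGG).
Foxf2 promoter, chr13:31625566-31625815, plus strand, gene higher: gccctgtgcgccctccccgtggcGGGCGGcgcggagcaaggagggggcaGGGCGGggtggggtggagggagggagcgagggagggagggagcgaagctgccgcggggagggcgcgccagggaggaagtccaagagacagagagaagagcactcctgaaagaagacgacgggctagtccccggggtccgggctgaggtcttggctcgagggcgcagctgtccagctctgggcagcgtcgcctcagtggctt
Foxc1 promoter, chr13:31806396-31806645, plus strand, gene higher: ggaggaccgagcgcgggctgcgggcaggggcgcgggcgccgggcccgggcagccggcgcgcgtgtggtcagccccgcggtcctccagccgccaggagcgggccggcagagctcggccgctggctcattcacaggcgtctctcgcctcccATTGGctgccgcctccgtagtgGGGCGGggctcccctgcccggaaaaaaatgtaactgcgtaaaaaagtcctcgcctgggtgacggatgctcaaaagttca
Foxd2 promoter, chr4:114908899-114909148, minus strand, gene higher: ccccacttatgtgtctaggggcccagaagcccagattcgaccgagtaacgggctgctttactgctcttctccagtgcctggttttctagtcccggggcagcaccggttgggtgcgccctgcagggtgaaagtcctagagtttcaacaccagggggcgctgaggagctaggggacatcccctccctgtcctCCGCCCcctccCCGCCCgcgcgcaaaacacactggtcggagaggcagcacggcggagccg
Foxe3 promoter, chr4:114926068-114926317, minus strand, gene lower: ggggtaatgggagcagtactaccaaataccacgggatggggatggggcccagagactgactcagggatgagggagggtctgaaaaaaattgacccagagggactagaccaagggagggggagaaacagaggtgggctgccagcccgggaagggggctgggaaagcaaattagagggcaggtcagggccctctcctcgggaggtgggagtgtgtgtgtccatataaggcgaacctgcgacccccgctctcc

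These windows held 21 CpG in Foxf2, 29 in Foxc1, 16 in Foxd2 and 6 in Foxe3, and the median over all 32851 windows of this length in the table was 6. GC boxes occur in the windows of Foxf2 (2), Foxd2 (2) and Foxc1 (1), and in 32.7% of all windows. The CCAAT box of Foxc1 lies 101 bases before the start, and 33.9% of all windows hold that motif. A forkhead motif (TGTTTAC or GTAAACA), a Sox motif (ACAATGG or CCATTGT), a GLI motif (TGGGTGGTC or GACCACCCA) and TATAAA (or TTTATA) were searched on both strands, and these letters are in none of the 4 windows. Of all windows 3.17% hold the forkhead motif, 3.02% the Sox motif, 0.225% the GLI motif and 12.4% TATAAA. A match of letters only describes the window. Over the 46 windows of the 38 members that matched the table, 27 hold a GC box (58.7%), 20 a CCAAT box (43.5%), 1 the forkhead motif, 2 the Sox motif and 2 TATAAA, and the median was 15.5 CpG.

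Among the FoxD genes, Foxd1 marks stromal progenitors of the kidney, and Foxd2 is active in mesenchyme of kidney and head. Foxd2 had levels of -0.66 and -0.71 in clusters and -4.04 and -4.08 in islets, a fold change of 3.37 ± 0.13 (adjusted p = 0.000190), and of 1.51 with normexp. Foxd1 had levels of -3.71 and -3.38 in clusters and -6.57 and -6.67 in islets, where neither array was well above background. It was at least 2.17-fold higher (adjusted p = 0.000474, and 0.0119 with signals raised to the detection floor). This call was lost with normexp (0.36, adjusted p = 0.0584). Foxd4 was lower by a small amount (-0.59 ± 0.18, adjusted p = 0.0452), and its adjusted p ranged over 0.0270 to 0.209 when single arrays were left out. Foxs1, a gene of vessel-wall pericytes, was higher by 1.096 ± 0.14 (adjusted p = 0.00438). Foxe3, a lens factor, had levels of -5.86 and -5.90 in clusters and -4.19 and -3.27 in islets. It was at least 1.92-fold lower (adjusted p = 0.00761), and with signals raised to the detection floor it was no longer called (-0.94, adjusted p = 0.0658). With normexp its change was -0.52.

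Hedgehog genes and stromal partners of FoxF and FoxL1 were read beside them. Of 11 tested genes 7 were higher, 1 was lower and 3 were not called, with a median log2 fold change of 2.97 against -0.15 over all genes tested. Wnt5a, a Wnt ligand, was higher by 6.43 ± 0.13 (adjusted p = 9.02e-05), and Pdgfra, a receptor for platelet-derived growth factor, by 5.72 ± 0.19 (adjusted p = 0.000142). Gli2, a transcription factor of the Hedgehog pathway, had no islet array well above background and was at least 10.1-fold higher. Gli1, of the same family, likewise had no islet array well above background and was at least 7.50-fold higher. The ligand Dhh was lower (-2.62 ± 0.20, adjusted p = 0.000988). The ligand Ihh was higher (2.97 ± 0.48, adjusted p = 0.00824), with 1 of 2 islet arrays well above background. The genes not called included the Hedgehog receptor Ptch1 (0.091) and the ligand Bmp4 (0.27). Pdgfra is also among the 13 mesenchymal markers, all of which were higher, and the part of stromal cells in these rises was not tested.

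**Figure D3:**
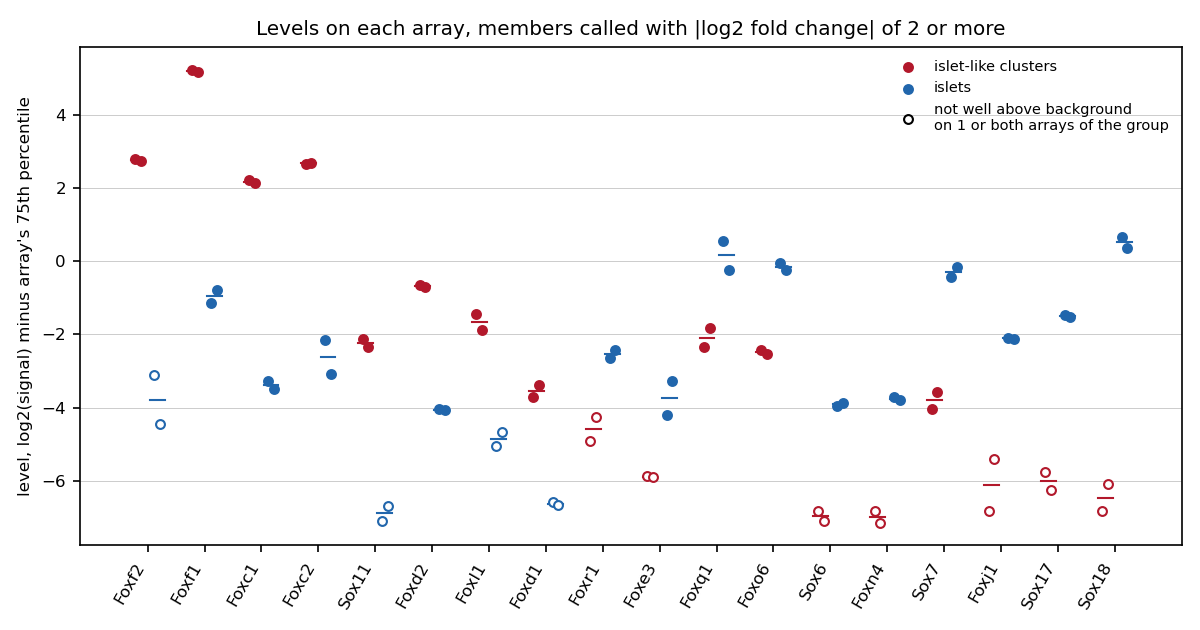
Level (log2 signal minus the array's 75th percentile) on each array of 18 members called with a log2 fold change of at least 2 in size, ordered from the highest to the lowest fold change. Points are single arrays, short bars group means, and open points belong to a group in which at least 1 array was not well above background. The groups do not overlap for any of the 18, which follows largely from choosing them by call and size of change.

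SoxF genes of endothelium were all lower in clusters. Sox7, Sox17 and Sox18 act together in vessel and lymphatic development, and Sox17 also acts in endoderm. Sox18 had levels of -6.83 and -6.08 in clusters and 0.65 and 0.37 in islets, and was at least 36.5-fold lower (adjusted p = 0.000249). Sox17 had levels of -5.75 and -6.24 in clusters and -1.46 and -1.52 in islets, and was at least 9.11-fold lower (adjusted p = 0.000298). Its second probe had levels of -6.83 and -7.08 in clusters and -0.78 and -0.76 in islets, and with it the gene was at least 15.02-fold lower. Neither gene was well above background on a cluster array with any probe. Sox7 was measured on all 4 arrays, at -4.03 and -3.57 in clusters and -0.44 and -0.15 in islets. Its change was -3.51 ± 0.22 (adjusted p = 0.000630), rank 433 from the bottom among the 20778 genes well above background throughout. With normexp the changes were -3.07 for Sox18, -2.20 for Sox17 and -1.997 for Sox7. The Sox18 probe (mm9, chr2:181404789-181404848, minus strand) is given by its first 30 bases, as it carries the largest fall.
Sox18 probe: cttcctttcgcatatgtatgttagggtatg

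On cluster replicate 1, 12957 spots (21.8%) carry 1 identical processed signal of 2.91, and on each of the other arrays at most 17 spots share a value. Sox18, Sox6, Foxj1 and Foxn4, and the second probes of Sox17 and Sox21, sit at the resulting level of -6.83 on that array, so the distance between their cluster arrays is not a measured spread.

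Endothelial genes were lower beside the SoxF genes. Of 13 tested genes of the SoxF endothelial list 12 were lower and 1, Flt1 (0.031), was not called. Their median was -4.36, or -2.54 with genes seen only in islets at their bound. Cdh5 (VE-cadherin) was at least 57.3-fold lower and the guidance receptor Robo4 at least 170.2-fold lower. Esam, an endothelial adhesion molecule, was lower (-5.22 ± 0.16, adjusted p = 0.000130). All 8 endothelial cell markers were lower, 7 of which are also in the SoxF list, with summed levels of 1.88 and 1.72 in clusters and 3.95 and 3.96 in islets. Of these markers Cdh5, Tie1, Tek and Emcn did not reach the detection flag on either cluster array. The part of endothelial cells in the SoxF values was not tested.

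SoxC genes, which promote survival and maturation of progenitors in many embryonic tissues, gave different results. Sox11 had levels of -2.11 and -2.35 in clusters and -7.09 and -6.68 in islets, and was at least 5.38-fold higher (adjusted p = 0.000264). With its second probe it was at least 3.27-fold higher. No islet array was well above background with either probe, and with normexp the change was 0.94 and still called.

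Sox4, a factor of endocrine cell differentiation in the embryonic pancreas, has 3 probes that did not give 1 value. The brightest, which represents the gene, had levels of 5.44 and 5.40 in clusters and 5.52 and 5.45 in islets. It was not called (-0.064, 95% interval -0.41 to 0.29, adjusted p = 0.695). The other 2 probes lie further from the 3′ end of the transcript. The nearer had levels of 2.63 and 2.52 in clusters and 3.90 and 3.69 in islets (-1.22 ± 0.16, adjusted p = 0.00458 over probes). The other, in the coding part for the HMG box, had levels of 0.27 and 0.22 in clusters and 1.72 and 1.66 in islets (-1.44 ± 0.13, adjusted p = 0.00196 over probes). With both of these the clusters lay below the islets without overlap. With the mean of its probes, Sox4 was called lower (-0.91, adjusted p = 0.00635). The probes are shown from 5′ to 3′ along the minus-strand gene on chromosome 13 (mm9), the first whole and the others by their first 30 bases.
Sox4 probe at chr13:29044482-29044541, lower: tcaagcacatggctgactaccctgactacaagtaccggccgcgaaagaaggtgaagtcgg
Sox4 probe at chr13:29042856-29042915, lower: ttttctgcaatgaagacagaaagaaggctc
Sox4 probe at chr13:29040826-29040885, not called: aatcctgtccgtcactgcctgtcaggttgt
Sox12, the third SoxC gene, was not called (-0.016, 95% interval -0.38 to 0.35).

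**Figure D4:**
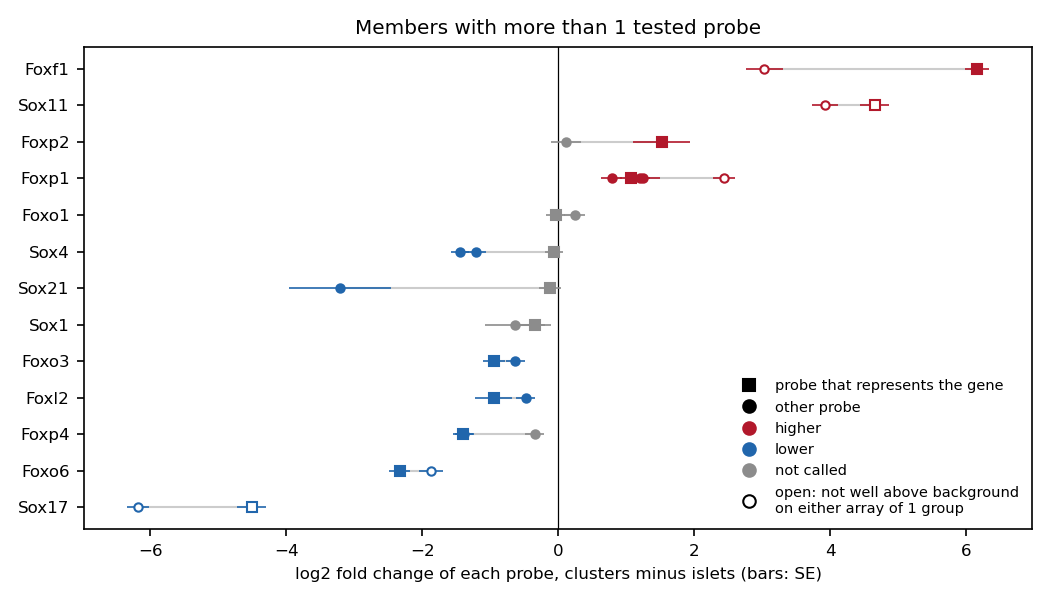
Log2 fold change (islet-like clusters minus islets) of every tested probe of the 13 members with more than 1, with SE bars. Squares are the probes that represent the gene, circles the other probes, colour gives the call in the fit over probes, and open symbols have neither array of 1 group well above background, so that their value is limited by the signal there. No member has called probes on both sides of 0.

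Of 67 tested member probes 48 were called (56.2% of all tested probes were called), 22 higher and 26 lower. Of 18 members with several probes, 13 had more than 1 tested, and none of these had called probes in opposite directions.

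SoxE genes gave 1 fall. Sox9, which marks pancreatic ducts and progenitors and drives cartilage, had levels of -0.26 and 0.46 in clusters and 1.61 and 1.85 in islets. Its change was -1.63 ± 0.29 (adjusted p = 0.0107), and the groups did not overlap. It is printed in 10 spots per array. On cluster replicate 1, 3 spots had processed signals of 27.4, 160 and 170, while the others lay between 422 and 457. On cluster replicate 2 the 10 spots lay between 465 and 526, on islet replicate 1 between 818 and 1032 and on islet replicate 2 between 773 and 887. None of these spots was flagged by the software. With the median over spots, an alternative added after the data were seen, the change was -1.29 (adjusted p = 0.00326), and without cluster replicate 1 it was -1.27 (adjusted p = 0.0265). Of 9 duct markers 7 were lower beside it, with summed levels of 9.31 and 9.20 in clusters and 8.09 and 7.83 in islets. Spp1 was the 1 duct marker called higher (2.93 ± 0.13, adjusted p = 0.000286), so the sum was higher in clusters although most of its members were lower. Krt7 and Tff2 did not reach the detection flag on either cluster array. The part of duct cells in the Sox9 value was not tested.

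Cartilage genes that Sox9 drives moved in both directions. Of 9 tested, 4 were higher, 3 lower and 2 not called, with a median of -0.035 (background 27.2% higher and 30.8% lower). The collagen gene Col11a1 was at least 7.77-fold higher and the link protein Hapln1 at least 2.54-fold higher. Col9a2 was lower (-2.21 ± 0.13, adjusted p = 0.000551). Without cluster replicate 1, 2 were called higher.

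Sox10, the neural crest and Schwann cell factor, was not called. Its levels were -2.004 and -2.09 in clusters and -1.95 and -2.06 in islets, and the groups overlapped (-0.042, 95% interval -0.41 to 0.32). Sox8 was not tested. Of 11 tested Schwann and neural crest genes 3 were higher, 6 lower and 2 not called (median -0.67), with 4 lower without cluster replicate 2. The growth cone protein Gap43 was higher by 6.78 ± 0.64 (adjusted p = 0.00183), with 1 of 2 islet arrays well above background, and S100b by 4.25 ± 0.46 (adjusted p = 0.00267). Myelin basic protein, Mbp, was lower (-7.55 ± 0.18, adjusted p = 9.1e-05), and Erbb3, the neuregulin receptor, was at least 9.90-fold lower.

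SoxD genes, partners of Sox9 in cartilage, moved in both directions, and 1 of the values needs its probe sequence to be read. Sox6 had levels of -6.83 and -7.08 in clusters and -3.94 and -3.87 in islets. It was at least 1.71-fold lower (adjusted p = 0.000370, and 0.0169 with signals raised to the detection floor), and its change with normexp was -0.70. Sox13 was lower (-0.996 ± 0.21, adjusted p = 0.0181), with an adjusted p of 0.0557 without cluster replicate 1 and 0.0853 without cluster replicate 2. Sox5 was called higher (1.93 ± 0.19, adjusted p = 0.00193), with levels of 6.17 and 5.98 in clusters and 4.32 and 3.97 in islets. That value comes from a probe built of GGA triplets, which make up 48 of its 60 bases. It shares a run of at least 20 bases with 18 probes of other genes, and the files place only 27 of its bases on the genome. Its 2 other probes were not well above background on any array. Sox5 was not tested once probes with at most 10 different 3-base words were left out, an alternative added after the data were seen. All 3 Sox5 probes lie on the minus strand of chromosome 6 (mm9) and are shown by their first 30 bases, with GGA triplets in capitals.
Sox5 repeat probe at chr6:143776945-143776971, processed signal 23732 and 22536 in clusters and 6047 and 3634 in islets: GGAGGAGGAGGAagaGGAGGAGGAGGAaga
Sox5 probe at chr6:143781520-143781579, processed signal 2.91 and 3.08 in clusters and 2.03 and 2.27 in islets: ttacaagcaaaaacgtcatcaagaagaaga
Sox5 probe at chr6:143787982-143788041, processed signal 6.92 and 6.53 in clusters and 4.38 and 5.92 in islets: ctgggcccatgggcaaattcaatcagatgc

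SoxB genes are neural and pluripotency factors, of which Sox1, Sox14 and Sox21 were well above background on all 4 arrays. Sox2, the partner of Oct4 in stem cells, and Sox3 were not well above background on any array. Sox1 was not called (-0.35, 95% interval -0.98 to 0.29). Sox14 was lower (-1.69 ± 0.19, adjusted p = 0.00292), by less with normexp (-0.90). Sox21 was not called on its brightest probe (-0.12), while its second probe was lower (-3.21 ± 0.75, adjusted p = 0.0250 over probes), with 1 of 2 cluster arrays well above background and the other at the shared value of that array. With the mean of its probes Sox21 was called lower (-1.67, adjusted p = 0.0178). Outside SoxB, Sox15 was not called (-0.56), and Sox30 was not tested. Of 6 tested pluripotency partners 2 were lower, Klf4 (-1.47 ± 0.17, adjusted p = 0.00310) and Esrrb (-2.28 ± 0.26, adjusted p = 0.00316), and 4 were not called. When cluster replicate 1 was left out, 1 of this list was called higher.

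FoxO factors are kept out of the nucleus after phosphorylation by Akt, and they drive genes of stress resistance, cell cycle arrest and fasting metabolism. Foxo1 had levels of 1.30 and 1.17 in clusters and 1.29 and 1.25 in islets, and the groups overlapped. It was not called (-0.040, 95% interval -0.40 to 0.32), nor was its second probe (0.24). Foxo3 had levels of -0.98 and -1.14 in clusters and -0.0015 and -0.22 in islets, a change of -0.95 ± 0.16 (adjusted p = 0.00872). That probe shares a run of at least 20 bases with 2 probes of other names, and the second Foxo3 probe, which shares none, was lower (-0.64 ± 0.14). Without cluster replicate 2 the adjusted p of Foxo3 was 0.0586. Foxo6, best known from brain, had levels of -2.42 and -2.54 in clusters and -0.052 and -0.24 in islets (-2.34 ± 0.15, adjusted p = 0.000618), and its change with normexp was -1.49. No cluster array was well above background with its second probe, which was at least 2.83-fold lower. Foxo4 was not tested.

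The transcripts of FoxO regulators were read from a fixed list. Of 17 tested regulators 6 were higher, 2 lower and 9 not called, with a median of 0.42 (background 27.2% higher and 30.8% lower). The ubiquitin ligase Mdm2 was higher by 1.61 ± 0.13 (adjusted p = 0.00113) and Skp2 by 1.57 ± 0.14 (adjusted p = 0.00145). The kinase Sgk2 was at least 57.9-fold lower. Stk4, a kinase of the Hippo pathway, was lower (-0.50 ± 0.15, adjusted p = 0.0437). Only 1 regulator was called lower when either cluster array or islet replicate 2 was left out.

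Of 21 tested FoxO targets 8 were higher, 8 lower and 5 not called, with a median of 0.39 (background 27.2% higher and 30.8% lower). Sod2 (mitochondrial superoxide dismutase) was higher by 2.89 ± 0.14 (adjusted p = 0.000328), Klf15 by 2.56 ± 0.14 (adjusted p = 0.000440) and Ccng2 (cyclin G2) by 2.47 ± 0.20 (adjusted p = 0.00115). Txnip, an inhibitor of thioredoxin, was lower (-5.33 ± 0.18, adjusted p = 0.000149). The vascular factor Klf2 (-2.95 ± 0.15, adjusted p = 0.000353) and the kinase Pdk4 (-2.69 ± 0.14, adjusted p = 0.000352) were also lower.

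**Figure D5:**
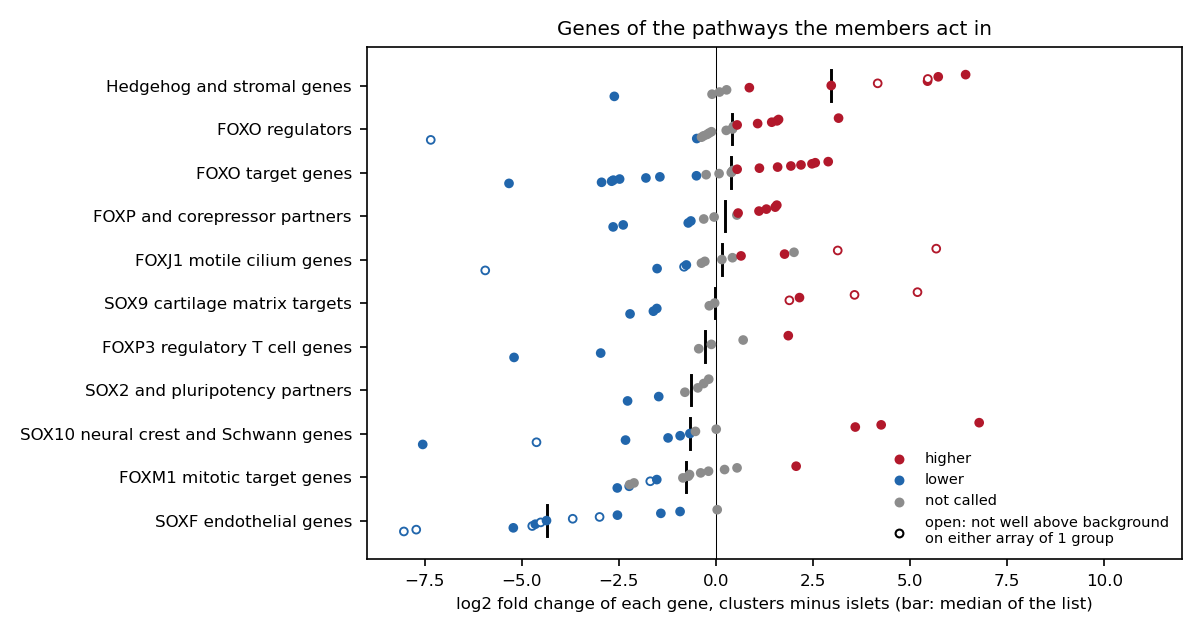
Log2 fold change (islet-like clusters minus islets) of each tested gene in 11 pathway lists, ordered by the list median (black bar), with colour for the call and open points where neither array of 1 group was well above background. The SoxF endothelial list lies lowest (median -4.36) and the Hedgehog and stromal list highest (median 2.97).

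FoxP factors are repressors that bind corepressors such as CtBP and the NuRD complex. Foxp1 was higher with each of its 5 probes. Fold changes were 0.78 to 1.24 with the 4 that reached the detection flag in islets, and the fifth, with neither islet array well above background, was at least 2.67-fold higher. The representing probe had levels of 3.31 and 3.21 in clusters and 2.31 and 2.07 in islets (1.07 ± 0.16, adjusted p = 0.00593). Foxp4 was lower, with levels of 2.74 and 2.57 in clusters and 4.02 and 4.11 in islets (-1.405 ± 0.14, adjusted p = 0.00219). Of its other probes 1 gave -1.38 and the dimmest -0.35, which was not called. Foxp2, known from speech and motor circuits, had levels of -2.74 and -2.67 in clusters and -3.65 and -4.80 in islets (1.52 ± 0.41, adjusted p = 0.0355). Only 1 of the 2 islet arrays was well above background for it, and its second tested probe was not called (0.11). Its adjusted p was 0.0943 without cluster replicate 1 and 0.100 without cluster replicate 2, and with normexp its change was 0.29 (adjusted p = 0.0936).

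Foxp3, the factor of regulatory T cells, had levels of -5.52 and -3.77 in clusters and -3.11 and -2.93 in islets and was not called (-1.63 ± 0.62, 95% interval -3.30 to 0.047, adjusted p = 0.0837). Without cluster replicate 2 it was called lower (-2.51, adjusted p = 0.00405). Of 6 tested genes of regulatory T cells 1 was higher (Il2rb, 1.86 ± 0.42, adjusted p = 0.0207), 2 were lower (Tnfrsf18, -5.20 ± 0.51, adjusted p = 0.00206, and Ikzf2, -2.97 ± 0.15, adjusted p = 0.000380) and 3 were not called. Without cluster replicate 1 or cluster replicate 2, no gene of this list was called higher, and without islet replicate 2 there were 2. Macrophage and lymphocyte markers were lower in 5 of 9 cases, with summed levels of 4.77 and 4.67 in clusters and 7.28 and 7.51 in islets, and their part in these values was not tested. With either cluster array left out, 3 of them were lower. Of 12 tested corepressor partners 5 were higher, led by Tle3 (1.57 ± 0.13, adjusted p = 0.00133), 4 were lower, led by Tle4 (-2.65 ± 0.16, adjusted p = 0.000531), and 3 were not called. Without cluster replicate 1 or cluster replicate 2, 2 corepressor genes were called lower.

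Foxm1 drives mitotic genes. It had levels of -2.41 and -2.57 in clusters and -2.01 and -2.06 in islets, a small fall (-0.46 ± 0.14, adjusted p = 0.0483). The same probe was not called in the fit over probes (adjusted p = 0.0546), and when single arrays were left out its adjusted p ranged over 0.0864 to 0.265. Its second probe was not well above background on any array. Of 14 tested mitotic targets 1 was higher, 4 were lower and 9 not called, with a median of -0.78 (background 27.2% higher and 30.8% lower). The higher one was Cdc25b (2.06 ± 0.19, adjusted p = 0.00158). The lower ones included Ccnb1 (cyclin B1, -2.54 ± 0.59, adjusted p = 0.0227) and Cenpe (-2.24 ± 0.38, adjusted p = 0.00915). Without islet replicate 2, 10 targets were called lower, and without cluster replicate 1 or cluster replicate 2 there were 2. Without islet replicate 1, 3 targets were called higher.

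Foxj1 is the master factor of motile cilia. It had levels of -6.83 and -5.39 in clusters and -2.08 and -2.12 in islets and was at least 5.96-fold lower (adjusted p = 0.00405), and its change with normexp was -1.23. Motile cilium genes went both ways, with 4 of 13 higher, 4 lower and 5 not called (median 0.15, background 27.2% higher and 30.8% lower). Rsph1, of the radial spoke head, was at least 43.2-fold lower, and Hydin was lower (-1.52 ± 0.29, adjusted p = 0.0134). Spag16, of the axoneme's central pair, was at least 11.4-fold higher and Ccdc39 at least 1.93-fold higher. Without cluster replicate 1 there were 2 higher and 1 lower calls, and without cluster replicate 2 there were 2 higher and 3 lower. Foxj3 was higher by 0.45 ± 0.13 (adjusted p = 0.0424), with adjusted p-values over 0.0750 to 0.231 when single arrays were left out, and Foxj2 was not called (-0.43).

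The remaining forkhead genes changed less or were dim. Foxk2, a repressor of autophagy genes, was higher by 1.398 ± 0.13 (adjusted p = 0.00172). Its paralog Foxk1 was not called (-0.21), with levels of 0.75 and 1.80 in clusters and 1.61 and 1.36 in islets, which overlap. Foxn2 was higher by 1.01 ± 0.21 (adjusted p = 0.0157, and 0.0640 without cluster replicate 2), and Foxn3 was not called (-0.17). Foxn4, known from retina and spinal cord progenitors, had levels of -6.83 and -7.14 in clusters and -3.70 and -3.80 in islets. It was at least 1.90-fold lower (adjusted p = 0.000387, and 0.00954 with signals raised to the detection floor), with a change of -0.65 under normexp. Foxr1 had levels of -4.91 and -4.26 in clusters and -2.65 and -2.43 in islets (-2.05 ± 0.27, adjusted p = 0.00448), with 1 cluster array well above background, and its change with normexp was -0.69. Foxi2 was lower (-0.94 ± 0.20, adjusted p = 0.0178, and 0.0767 without cluster replicate 2). Foxi1, a factor of ion-transporting cells (-0.047), Foxi3 (-0.69) and Foxh1, a partner of Smad proteins (-0.63), were not called.

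Foxl2, the factor of ovarian granulosa cells, was called lower (-0.95 ± 0.27, adjusted p = 0.0382), with adjusted p-values of 0.0724 without cluster replicate 1, 0.146 without cluster replicate 2 and 0.0699 without islet replicate 2. Its signal differed between overlapping probes, which are shown in full with the 12 bases they share in capitals. The first, rich in GCC repeats, had processed signals of 17155 and 14782 in clusters and 22100.4 and 25641 in islets. Its neighbour had processed signals of 25.9 and 31.5 in clusters and 34.5 and 27.6 in islets, and a fold change of -0.48 ± 0.14 (adjusted p = 0.0481 over probes). Of all probes on the array, 0.309% have as few different 3-base words as the GCC-rich one. That probe shares a run of at least 20 bases with 1 probe of another gene, and the files place 57 of its 60 bases on the genome. Both lie on the plus strand of chromosome 9 (mm9).
Foxl2 GCC-rich probe, chr9:98856894-98856950: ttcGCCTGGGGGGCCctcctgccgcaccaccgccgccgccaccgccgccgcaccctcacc
Foxl2 second probe, chr9:98856846-98856905: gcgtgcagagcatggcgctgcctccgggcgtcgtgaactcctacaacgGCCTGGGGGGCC

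The 11 members that were not tested are Foxb1, Foxb2, Foxd3, Foxe1, Foxn1, Foxo4, Foxr2, Sox2, Sox3, Sox8 and Sox30. Their 14 probes gave processed signals between 2.02 and 14.3, and 2 of 56 readings were well above background, 1 of Foxe1 and 1 of Foxo4, both on islet replicate 1. A difference between clusters and islets was not detectable for them at these signals.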

How the data were processed

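RNA (500 ng per sample) was labelled with Cy3 after oligo-dT priming, per the labels' protocols, and hybridised to 4 mouse arrays. The deposited intensity values are the processed signals of Agilent Feature Extraction 11.5.1.1, per the file headers, background-subtracted and not normalized between arrays, with a flag for spots well above background. The deposited log2 table of the authors was set against them. Their values follow the scanner signals with r of at least 0.9999 per array, column medians are -3.61, -3.70, -3.50 and -3.37, and how they were centred is not given in the sources used here. That table served as an alternative.

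Control spots and outlier flags were left out, spots of a probe averaged, log2 taken and each array's 75th percentile over probes with a value on all 4 arrays subtracted. Probes well above background on both arrays of a group entered, the brightest probe stood for its gene, and limma 3.58.1 in R 4.3.3 tested clusters minus islets (2 arrays each, threshold 0.05 after Benjamini-Hochberg), as did a fit over all probes. The fit was tested on simulated data. Members called with a log2 change of at least 2 or a bound of at least 4-fold, and a fixed set of further members, were named with their values, and up to 3 genes per direction of each list. Flt1, Ptch1, Gli1, Ihh, Bmp4 and Spp1 were named after their values were seen. The members and lists were chosen with earlier results of these data known. Alternatives covered background, scaling, filters, probes, the replicate block and each array left out, and 3 were added after the data were seen (median over spots, repeat probes left out, a percentile over each array's own probes). Tubb2c, Amy2 and Adgre1 of the lists are not on the array under those names. Some genes that enter the counts are not reported here by name. The arrays' number limits the precision.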

Additional observations from a re-analysis of the deposited data

How the results depend on the processing

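Over the 19 alternatives, values of single members kept their direction and side of the threshold in 824 cases, lost the call in 56, gained one in 12 and changed sign in 24, and no member was called in opposite directions. The sign changes concern members that were not called. With array median scaling, under which the median of all genes was 0.071 against -0.15 and 56.9% of calls were higher against 46.9%, the log2 fold changes were 0.17 for Foxi1, 0.0051 for Foxk1, 0.050 for Foxn3, 0.18 for Foxo1, 0.17 for Sox10, 0.20 for Sox12, 0.094 for Sox21 and 0.15 for Sox4. With quantile normalization they were 0.16 for Foxi1, 0.16 for Sox10, 0.19 for Sox12 and 0.047 for Sox21, and with the mean of probes 0.10 for Foxo1. With the percentile over each array's own probes they were 0.0046 for Foxo1, 0.0023 for Sox10 and 0.029 for Sox12. Leaving out single arrays gave -0.44 to 0.34 for Foxi1, -0.73 to 0.31 for Foxk1, -0.10 to 0.023 for Foxo1, -0.097 to 0.012 for Sox10 and -0.073 to 0.041 for Sox12. With only probes well above background on all arrays, 35 members entered instead of 49. Of these 10 were higher and 13 lower, and 31 member probes were called. This filter removed members and probes, while 60.1% of the genes tested were called, against 58% in the main fit. Counts of called genes were 14260, and 9829 to 14978 when single arrays were left out. The samples share only a replicate number (r = -0.023 between deviations of same-numbered arrays), and with the replicate block 12094 genes and 14 higher and 16 lower members were called. Of 760 alternatives of list counts 62 moved by more than 1.5 times. For genes near the detection flag the signal over background limits the size of a fold.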
